A study of Mus musculus with 41 samples.

Results

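Chromosome 15 of the mouse carries Myc, and its copy number was described here in 14 mesothelioma tumors profiled by low-coverage DNA sequencing. The members are the 4837 bins of 20 kb listed on chromosome 15, out of 114391 bins on chromosomes 1 to 19 and 122257 bins in all. They were chosen by chromosome and not by their own values, but chromosome 15 itself was selected on measured RNA, because earlier results of the same series had shown raised RNA of chromosome 15 genes in the cell line JB97. The RNA values of JB97 are therefore given as a description. All 14 tumors and all 4837 bins were used, and a bin value is the deposited log2 value minus the median of all autosomal bins of the same tumor, so that 0 is the level of a typical autosome. Between 4834 and 4836 of the bins had a value in each tumor, and 1 bin had none in any tumor.

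The tumors came from mice of 2 genotypes, Bap1-/-;Nf2-/-;Cdkn2ab-/- (BNC) and Nf2-/-;Cdkn2ab-/- (NC), and the labels give 10 BNC and 4 NC tumor DNA samples. All mice were of mixed background (FVB, Bl6, 129Ola), received cyclosporine A, and were injected between the ribs at 6 to 8 weeks of age with adenovirus that expresses Cre recombinase from the CMV promoter, which is active in any infected cell. Both genotypes thus share the loss of Nf2 and of Cdkn2ab, and in the Cdkn2ab allele Ink4a and Ink4b are deleted in the germline whereas Arf is conditional. RNA of 6 cell lines derived from such tumors was also used (JB81, JB91, and JB97 are BNC, whereas JB84, JB87, and JB93 are NC), together with 9 tumor RNA libraries (labels: 5 BNC and 4 NC). The DNA and tumor RNA columns carry tumor codes but no genotype, and no comparison of BNC with NC tumors was made. Tumors B20 and B21 carry the same mouse number at 2 sites, coded RC and Eso, and are not independent animals.

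Myc encodes a transcription factor that pairs with Max and drives genes of ribosome production, nucleotide synthesis, and cell cycle entry, and it is opposed by the Mxd proteins, Mxi1, and Mnt, which bind the same partner. Pvt1, a long noncoding RNA gene, lies directly downstream of Myc and is often gained together with it. In mouse tumors and in cultured mouse cells, gain of a whole chromosome 15 is a well-known way to raise the dose of Myc. In a diploid genome, 1 extra copy in every cell gives a log2 value of 0.58, loss of 1 of 2 copies gives -1, and a smaller value results where only some cells carry the change. As a measure of this scale in the same files, the X chromosome was at -1.05 to -0.98 in 6 tumors and at -0.016 to 0.030 in the other 8.

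No tumor had a gain of chromosome 15 near the size of 1 extra copy. The level, the median over the bins of the chromosome, was at or slightly above 0 in most tumors, with a lowest value of -0.0019, a median of 0.0049, and a highest value of 0.048 (SD 0.014, n = 14). It was above 0 in 11 tumors. The highest was that of B21, followed by B31 with 0.028 and B28 with 0.013. The remaining 11 tumors were at or below 0.011.

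B21 was the tumor in which chromosome 15 stood apart from the rest of the genome. Its level of 0.048 was the highest of its 19 autosomes, the other 18 lying between -0.016 and 0.0086, and B21 was the only tumor of the 14 with chromosome 15 in first place. On the copy scale, 0.048 is the value that 1 extra copy in 6.82% of cells would give. B20, which carries the same mouse number, was at 0.0081, inside the range of -0.026 to 0.0099 of its own other autosomes. In B31 the level of 0.028 ranked below chromosome 19 at 0.17 and chromosome 17 at 0.11, and its other 16 autosomes were between -0.017 and 0.00096. With 1 library per tumor there is no replicate of B21 or B31, and no test of their levels was made.

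**Figure D1:**
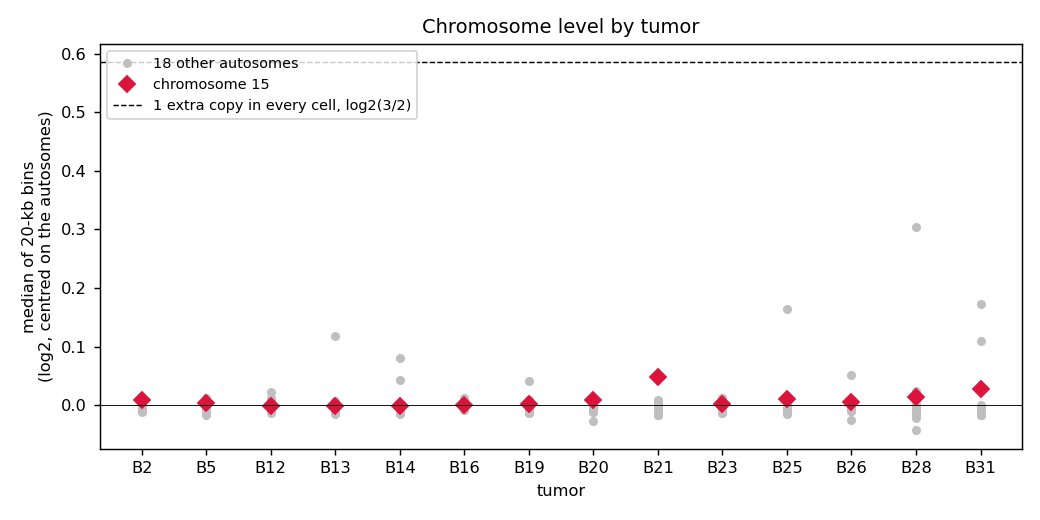
Level of each autosome (log2, centred on the autosomes) in the 14 tumors, with chromosome 15 as red diamonds, the other 18 autosomes as grey points, and the value of 1 extra copy in every cell as a dashed line. Chromosome 15 lay between -0.0019 and 0.048, far below the line at 0.58, and was the top point only in B21.

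The RNA libraries of the tumors held RNA of other cell types. Leukocyte markers (Ptprc, Cd68, and Cd3e) summed to between 137 and 390 CPM (counts per 1000000 counts, scaled by TMM) in the 9 tumor RNA libraries and to between 2.59 and 4.46 CPM in the 6 lines. The endothelial markers Pecam1 and Cdh5 summed to between 43.9 and 447 CPM in tumors and to between 0.067 and 0.31 CPM in the lines. The share of such cells in the DNA samples was not measured, and their part in the DNA levels was not tested. RNA libraries exist by tumor code for 5 of the 14 DNA tumors (B2, B13, B14, B19, and B28), and not for B21 or B31.

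The 10-Mb windows gave the same picture along the chromosome. None of the 154 window medians (11 windows in 14 tumors) was above 0.2 or below -0.2, the limits set for a raised or lowered window. Over all autosomes, 0.225% of 3556 windows were above 0.2, namely 7 windows of chromosome 19 in B28 and 1 of chromosome 17 in B25, and 0% were below -0.2. A window at 0.2 would correspond to 1 extra copy in 29.7% of cells, so gains carried by fewer cells are outside this limit. None of the chromosome 15 windows passed a limit of 0.1 either, which corresponds to 14.4% of cells. Over all autosomes, 1.07% of the windows were above 0.1 and 0.056% below -0.1.

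Most tumors shared a profile across the windows, the exceptions being B5, B21, and B31. The median over the 14 tumors was 0.028 in the window from 40 to 50 Mb and 0.025 in the window from 60 to 70 Mb, which holds Myc. It was negative in the 4 windows from 70 Mb to the end of the chromosome, where it ran from -0.026 to -0.0099 and where 10 to 12 tumors of 14 were below 0. B5 was the only tumor below 0 in the window from 60 to 70 Mb (-0.049), and B21 and B31 were above 0 in all windows. The mean GC content of the bins was 37.5% in the window from 40 to 50 Mb and between 43.6% and 47.5% in those 4 windows. Across the 11 windows, which are neighbors on 1 chromosome and not independent, the median level and GC content had a Spearman rho of -0.75. Values were therefore also expressed relative to the median of the 14 tumors at each bin, which takes out what most tumors share.

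After this subtraction B21 was above 0 in 11 of 11 windows, with values from 0.019 to 0.044 and a level of 0.030, the value of 1 extra copy in 4.23% of cells. B21 was the highest of the 14 tumors in 10 of the 11 windows, the exception being the window from 30 to 40 Mb, where B5 was higher. In 9 of its 11 windows the value was above 0.02, and these were the only windows of the 254 autosomal windows of B21 above that value. B31 was likewise above 0 in 11 of 11 windows, with values from 0.0043 to 0.028 and a level of 0.013, but 21 windows of its 254 were above 0.02 and only 2 of these were on chromosome 15. In both tumors the small excess extended over the whole chromosome and was not limited to the part that holds Myc. B5 had the most uneven profile, from -0.062 in the window from 60 to 70 Mb to 0.028 in the window from 30 to 40 Mb.

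**Figure D2:**
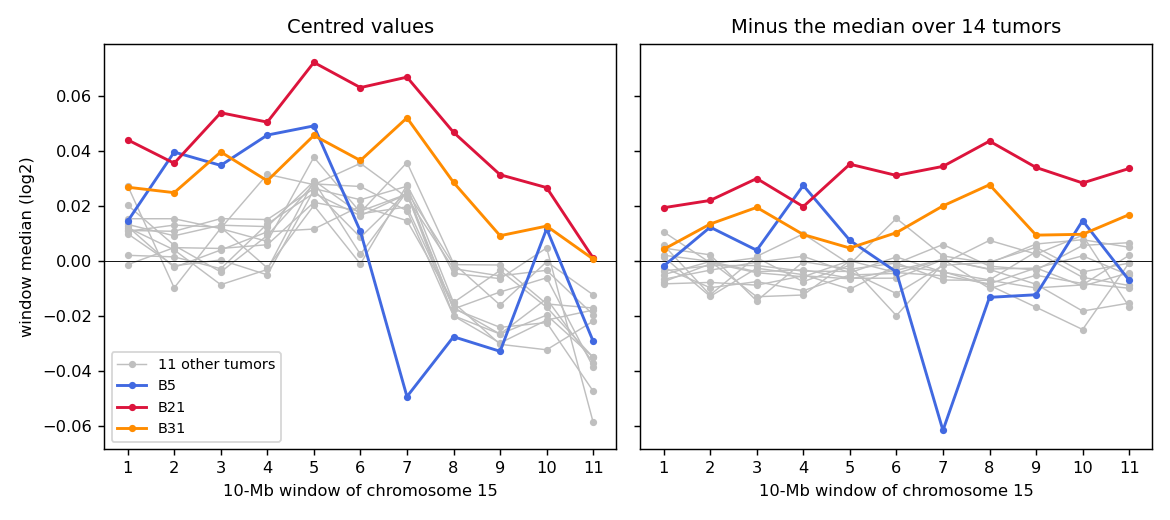
Median of the bins in each 10-Mb window of chromosome 15 (x axis, window 1 to 11 from the centromere end; y axis, log2), as centred values on the left and after subtraction of the median over tumors on the right, 1 line per tumor. B21 (red) lay above 0 in all windows in both panels, B31 (orange) ran below it, and B5 (blue) dropped to -0.062 in window 7 on the right.

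Breakpoints were sought by fitting steps to the bins of each chromosome, with at least 25 bins per segment and a step of at least 0.2 between neighboring segments. Only 1 breakpoint was found on chromosome 15. It lay in B5 at 69360001 (mm10), where the segment median went from 0.019 to -0.20, and the next segment, from 71700001, was at -0.010. Chromosome 15 thus had a breakpoint in 7.14% of tumors, whereas 29.7% of the 266 pairs of an autosome and a tumor had at least 1. Some steps on other autosomes recurred at or near the same place in several tumors. On chromosome 4, all 14 tumors had a step between 145320001 and 145540001. The share of 29.7% thus includes steps that tumors have in common. When the median over tumors was subtracted first, no chromosome 15 step reached 0.2, and 38 of the 266 pairs had a breakpoint. With this subtraction, the only chromosome 15 steps of 0.02 or more were again in B5, between 59960001 and 72880001. The segment median there was -0.072. Over all autosomes, 52 of the 266 pairs had a step of 0.02 or more. B5 was the noisiest library, with a bin noise (SD from neighboring bins) of 0.16 compared with a median of 0.13 over the tumors. No step of 0.02 or more was fitted on chromosome 15 of B21 or B31 with these relative values.

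A focal gain of Myc was not detectable in any tumor at this depth. The gene (61985391 to 61990374 on the plus strand, mm10, GENCODE M21) lies within 1 bin, 61980001 to 62000000. In that bin, the values from lowest to highest were -0.34 in B31, -0.30 in B2, -0.29 in B12, -0.15 in B5, -0.14 in B16 and B19, -0.12 in B25, and -0.096 in B14. They went on with -0.054 in B21, 0.00033 in B28, 0.031 in B23, 0.033 in B26, 0.053 in B13, and 0.065 in B20. The median was -0.11 (SD 0.13, n = 14), and even the highest value lay far below 0.58. A single bin is a coarse measure here, since its spread over tumors was close to the bin noise of 0.11 to 0.16.

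B21, the tumor with the highest chromosome level, was at -0.054 in the Myc bin, and 21.2% of its chromosome 15 bins were lower. B31 had the lowest Myc bin of the 14 tumors, with only 0.31% of its bins lower. The Myc bin had a GC content of 46.8%, compared with a median of 41.1% over the chromosome. Relative to the other tumors at the same bin, B21 was at 0.056 and B31 at -0.23.

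The surroundings of Myc averaged the noise and were flat. The median of the 51 bins within 500 kb ran from -0.040 in B20 to 0.055 in B19, with 10 of 14 tumors above 0. Its difference from the level of the whole chromosome was between -0.048 and 0.052, and in B21 it was -0.0084. Relative to the other tumors, B21 had the highest value of this region, 0.031, close to its excess of 0.030 on the whole chromosome. Pvt1 (62037986 to 62378096, plus strand), covered by 18 bins, had medians from -0.070 in B5 to 0.064 in B19.

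**Figure D3:**
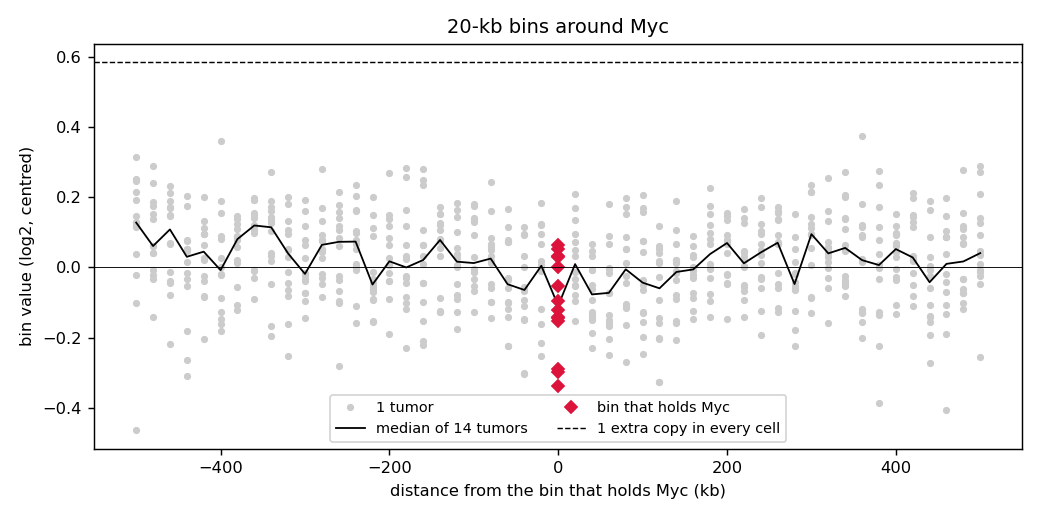
Values of the 20-kb bins (log2, centred) within 500 kb of the bin that holds Myc, against the distance from that bin in kb, with 1 grey point per tumor and bin, the median of 14 tumors as a line, and the Myc bin as red diamonds. The Myc bin ranged from -0.34 to 0.065, and no point came near the dashed line of 1 extra copy at 0.58.

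Other genes of the chromosome were equally near 0. Of a list of 50 chromosome 15 genes with roles in growth, adhesion, chromatin, and development, 48 overlapped a bin, and their medians over the tumors ran from -0.13 to 0.056. None of the 672 pairs of a gene and a tumor reached 0.58. The highest medians were those of Ptk2, which encodes focal adhesion kinase (0.056, range -0.043 to 0.14), Sdc2, a cell-surface heparan sulfate proteoglycan (0.051, range -0.055 to 0.14), and Osmr, the oncostatin M receptor (0.045, range -0.087 to 0.19). The lowest were those of Hoxc8, a homeobox gene (-0.13, range -0.36 to -0.0041), Myc, and Wnt1, a secreted signaling protein (-0.10, range -0.26 to 0.15), each measured in 1 bin. Among the 37 genes with at least 2 bins, 1 of 518 values was above 0.2 and 16 were below -0.2. The 1 above was that of Rictor, a subunit of the mTORC2 kinase complex, in B5 (0.23). The same count was not made for genes of the other autosomes, so these numbers are not a result about the listed genes.

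Extreme single bins were seen outside Myc. In 27 bins of chromosome 15 (0.558%), at least 1 tumor was past 0.8 in either direction, compared with 1.02% of the bins of all autosomes, and 13 of these bins were past it in B5 alone. In 2 bins the values were above 0.8 in all 14 tumors. They were the bin from 9000001 to 9020000 within Ranbp3l, with values from 1.06 in B21 to 3.01 in B5, and the bin from 39900001 to 39920000, with values from 1.16 in B25 to 1.58 in B5. In B5 the neighboring bin at 8980001 was also high (1.08), whereas the other 13 tumors were below 0 there.

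The longest run of extreme bins on chromosome 15 lay over the Apol cluster, a group of neighboring genes for apolipoprotein L family proteins. It extended over 6 bins, from 77440001 to 77560000. Its last 5 bins, 77460001 to 77560000, hold the protein-coding genes Apol10a (77477047 to 77491069), Apol11a (77508271 to 77518051), and Apol7c (77524852 to 77533316, minus strand), and part of 1700025B11Rik. Promoters of the first 2 genes are shown because the start of Apol10a and the start of Apol11a lie in bins of this run. They are from RefSeq (GRCm38.p6), 5′ to 3′ on the plus strand, 250 bases before the start in lower case and the 50 bases from the start in capitals, at chr15:77476797-77477096 for Apol10a and chr15:77508019-77508318 for Apol11a.
Apol10a: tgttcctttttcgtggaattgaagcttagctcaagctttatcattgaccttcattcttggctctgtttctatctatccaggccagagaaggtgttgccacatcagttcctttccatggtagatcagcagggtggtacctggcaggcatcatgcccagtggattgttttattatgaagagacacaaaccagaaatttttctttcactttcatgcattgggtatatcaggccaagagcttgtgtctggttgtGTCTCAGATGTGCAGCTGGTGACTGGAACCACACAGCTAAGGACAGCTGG
Apol11a: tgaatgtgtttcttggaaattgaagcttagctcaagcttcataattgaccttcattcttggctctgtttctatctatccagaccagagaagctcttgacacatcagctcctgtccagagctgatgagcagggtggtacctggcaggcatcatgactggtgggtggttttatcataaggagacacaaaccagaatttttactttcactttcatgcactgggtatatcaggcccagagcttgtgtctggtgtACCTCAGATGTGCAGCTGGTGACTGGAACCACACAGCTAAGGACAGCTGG
Their GC contents are 45.3% and 46.7%.

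In 8 tumors (B2, B13, B19, B20, B21, B25, B26, and B28), the median of the 5 bins was between -0.30 and -0.15. In B5, B12, B14, B16, and B31 it was between -1.14 and -0.75, near the value of -1 that loss of 1 of 2 copies would give. B5 was at -0.75, B12 at -0.91, B14 at -0.92, B31 at -0.93, and B16 at -1.14. In B23 it was lower still. The bins from 77480001 to 77500000 and from 77500001 to 77520000, the latter with the start of Apol11a, held no reads in B23, and the other 3 bins were at -1.68, -2.16, and -1.36. No tumor median lay between -0.75 and -0.30. In single bins the groups overlapped, as at 77520001, with B2 at -0.57 and B12 at -0.37. The first bin of the run, at 77440001, was left out and had another order, with B2 lowest (-0.84) and B31 at -0.016. The choice of these 5 bins was not set in advance. The bins within 500 kb on either side had medians of -0.073 to 0.019 in all tumors.

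**Figure D4:**
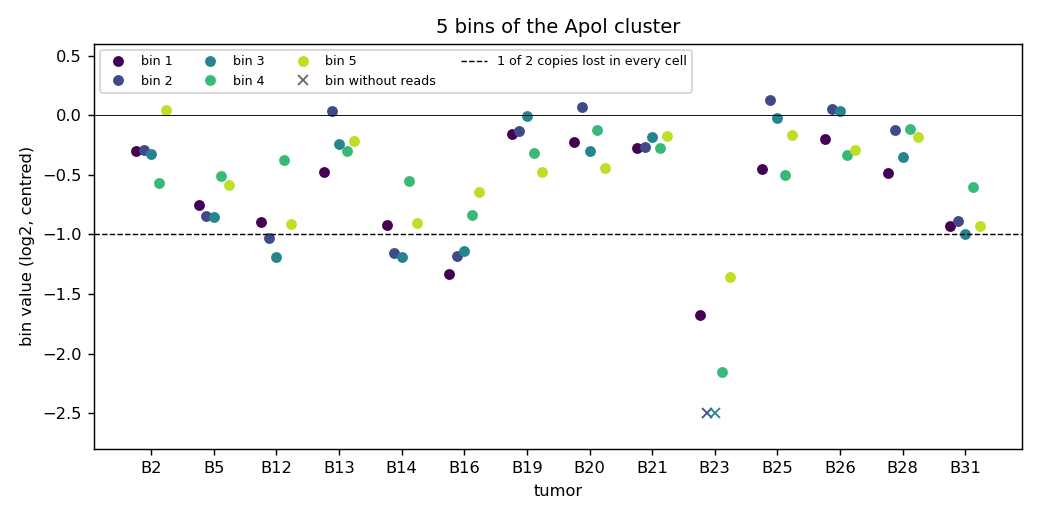
Values of 5 neighboring 20-kb bins (log2, centred) over the Apol cluster in the 14 tumors, colored by bin from first to last, with a cross at the bottom for a bin without reads and a dashed line at the value for loss of 1 of 2 copies. Tumors with medians of -0.30 to -0.15 and tumors with -1.14 to -0.75 were separate, and B23 was lowest with 2 empty bins.

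The low values were not confined to this run. A single bin about 5 Mb away, 82500001 to 82520000, which overlaps the gene models Gm27825, Gm46525, and Tdg-ps, was also lowest in B23 (-1.77). It was between -1.29 and -0.60 in the 5 tumors with intermediate values in the Apol bins and between -0.65 and 0.07 in the 8 others, so that these ranges overlapped. The file has no column of normal tissue from the same mice, and in mice of mixed strain background a variant present from birth cannot be told apart from one acquired in the tumor. The 2 tumors with the same mouse number, B20 (-0.22) and B21 (-0.26), were both among the 8 tumors with the higher Apol medians. This pair therefore cannot decide that question. Apol10a and Apol11a RNA was at most 0.30 and 0.19 CPM in the 9 tumors, too low to compare tumors. Apol7c RNA was 4.81 CPM in B19, 2.4 in B2, 1.30 in B14, 0.17 in B13, and 0 in B28, so B14, the 1 of these 5 tumors with low Apol DNA, lay between the others.

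RNA of chromosome 15 in the lines was examined next, because the question of gain arose from JB97. There were 2 pairs of lines that were nearly alike. Over 10033 genes with a mean of over 100 counts, the chi-square per gene between the counts of JB81 and JB91 was 17.1 and that between JB84 and JB93 was 25.3, whereas the other 13 pairs of lines were between 125 and 541. Sampling noise alone would give about 1, so the counts of each pair differed by more than sampling noise. This value cannot tell a second sequencing of 1 library from a new library or a new culture. The origin of the likeness was not tested. The edgeR tests of BNC against NC lines given here count all 6 lines as separate replicates. With each pair summed as if it were 1 source, edgeR called 0 of 12859 genes, with 1508 at an unadjusted p under 0.05. Every adjusted p and SE of the 6 lines is to be read beside that. JB81 and JB91 also carried little RNA of the mesothelial markers Msln (0.22 and 0.45 CPM), Pdpn (0.31 and 0.58 CPM), and Upk3b (2.50 CPM in both), all abundant in the other 4 lines. Lrrn4, another such marker, did not follow this split. It was 0.045 CPM in JB81, 0.18 in JB91, 1.01 in JB84, 1.13 in JB93, 5.77 in JB97, and 23.9 in JB87. Wt1 was at 76.6 CPM or above in all 6.

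RNA of chromosome 15 genes was higher in all 3 BNC lines than in the NC lines, with JB97 the highest. For each line, the median over 311 expressed chromosome 15 genes of the difference in log2 CPM from the mean of the lines of the other genotype was 0.38 in JB97, 0.23 in JB91, and 0.22 in JB81. It was -0.19 in JB87, -0.30 in JB93, and -0.35 in JB84. With scaling by library size alone, the signs stayed but the values were 0.26 in JB97, 0.068 in JB91, 0.044 in JB81, -0.11 in JB87, -0.12 in JB93, and -0.15 in JB84. JB97 and the BNC pair share the NC lines as reference, and the values of BNC and NC lines are mirror images in part. In JB97 chromosome 15 ranked first of 19 autosomes, the other 18 lying between -0.24 and 0.31, and 70.4% of its chromosome 15 genes were above 0, compared with 55.1% of all autosomal genes. In JB81 and JB91, however, the highest autosome was chromosome 8 (0.54 and 0.57), and chromosome 15 had rank 5 and rank 3.

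Measured against the mean of the other 5 lines, JB97 was at 0.26, and chromosome 10 (0.31) was higher. Its excess was spread along the chromosome, from 0.11 in the window from 50 to 60 Mb to 0.36 in the window from 40 to 50 Mb, and positive in all 11 windows. JB84 was at -0.27 and JB93 at -0.17 on the same scale, so JB84 was as far below the other lines as JB97 was above them. The chromosome median was not tested between genotypes, because the alike pairs may leave only 2 sources of cells per genotype. Neither the labels nor the paper says whether the lines of a pair share a source. DNA of the lines was not analysed here, so an extra chromosome in JB97 was not measured directly.

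In the 9 tumor RNA libraries chromosome 15 stayed near the other autosomes. The median over 342 expressed chromosome 15 genes of the difference from the mean of the other 8 tumors was -0.16 in B1, -0.075 in B2, 0.16 in B14, and 0.015 in B19. It was 0.039 in B27, -0.0043 in the library without a tumor code, -0.061 in B13, -0.00019 in B28, and -0.16 in B45. In B1, B2, B14, and B45 all autosomes lay on 1 side of 0, whereas in the other 5 libraries they lay on both sides. Relative to the median autosome of the same tumor, chromosome 15 was between -0.075 (B28) and 0.068 (B1). The lines were set against the mean of the lines of the other genotype, a different reference from that of the tumors. Relative to the median autosome, chromosome 15 was then at 0.30 in JB97, 0.16 in JB81, and 0.17 in JB91. It was at -0.13 in JB87 and at -0.26 in both JB84 and JB93. Because the references differ, the sizes of the line and tumor values cannot be compared directly. B1 was the shallowest library, with 8158740 counts compared with at least 14679537 in the other 8. The 5 tumors with both measurements had DNA levels of -0.0018 to 0.013 for chromosome 15. For comparison, chromosome 19 had DNA levels of 0.30 in B28, 0.12 in B13, 0.081 in B14, 0.041 in B19, and -0.011 in B2. Relative to the median autosome, its RNA was at 0.21 in B28, the highest of the 19 autosomes, and at 0.069 in B14. It was at -0.014 in B19 and at -0.22 in B2, the lowest of the 19 autosomes. In B13 it was at -0.13, also the lowest. RNA of chromosome 19 thus had the same order as DNA except in B13.

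**Figure D5:**
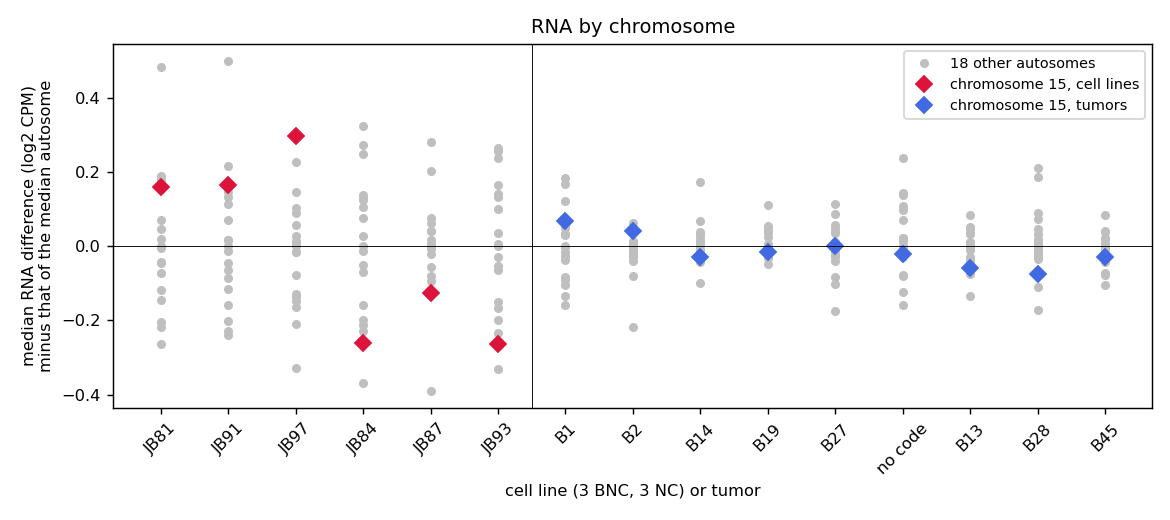
Median RNA difference of each autosome (log2 CPM, minus that of the median autosome of the library) in 6 cell lines (left, against the lines of the other genotype) and 9 tumors (right, against the other tumors), with chromosome 15 as diamonds and the other 18 autosomes as grey points. Chromosome 15 was at 0.30 in JB97 and at -0.26 in JB84 and JB93, whereas the tumors lay between -0.075 and 0.068.

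Myc RNA did not follow genotype in the lines. It was 66.7 CPM in JB81, 73.5 in JB91, and 136 in JB97 among BNC lines, and 80.6 in JB84, 123 in JB87, and 87.7 in JB93 among NC lines. The groups overlapped, and JB97 was the highest line with JB87 next. The log2 fold change (BNC minus NC) was -0.092 ± 0.34 (SE), with an adjusted p = 0.86 (edgeR quasi-likelihood test, Benjamini-Hochberg). JB97 exceeded the mean of the other 5 lines by 0.68 on the log2 scale. Pvt1 was lower in JB97 (22.1 CPM) than in JB84 (46.3) and JB93 (48.4) and was between 17.2 and 19 CPM in JB81, JB91, and JB87 (log2 fold change -0.92 ± 0.39, adjusted p = 0.15, edgeR).

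In tumors Myc RNA was between 19.7 CPM (B2) and 75.2 CPM (B28), with a median of 28.6 CPM, and the library without a tumor code was at 75.1. The next tumor, B27, was at 49.9. B28, at 75.2 CPM, had a chromosome 15 DNA level of 0.013 and a Myc bin of 0.00033, and B2, at 19.7 CPM, had 0.0083 and -0.30. B13, B14, and B19 had 28.6, 35.3, and 26.3 CPM at chromosome levels of -0.0016, -0.0018, and 0.0026. The 3.8-fold range of Myc RNA among these tumors was thus seen at chromosome levels that differed by at most 0.015. In bulk tumors fewer cells of a type and less RNA per cell cannot be told apart. Pvt1 was highest in the same 2 libraries, with 25.2 CPM in the library without a code and 21.7 CPM in B28, whereas the other 7 were between 4.56 and 7.36 CPM.

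None of the 12 genes of the Myc network (Mycn, Mycl, Max, Mxd1, Mxd3, Mxd4, Mxi1, Mnt, Mga, Mlx, Mlxip, and Zbtb17) passed the test between BNC and NC lines, compared with 1.1% of all 12376 genes tested. The smallest adjusted p was 0.14 (edgeR). An unadjusted p under 0.05 (edgeR) was reached by 0 of the 12, compared with 35.6% of all genes tested. Max, the obligate partner of Myc, was between 63.3 and 76.4 CPM in all 6 lines. Mxi1, an antagonist, was lowest in JB97 (11.9 CPM, compared with 20.3 to 36.9 in the other lines). None of 15 commonly used Myc target genes passed either. The closest was Ccnd2, encoding cyclin D2 (log2 fold change 1.49 ± 0.27, adjusted p = 0.025, edgeR). It was the only 1 of the 15 with an unadjusted p under 0.05 (edgeR). In lists this short, 0 genes called is near the share of 1.1% over all genes.

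As a description of JB97, 15 of 15 target genes were above the mean of the other 5 lines, compared with 49.7% of all 12376 genes tested, with a median difference of 0.54 on the log2 scale, compared with -0.0040 over all genes. JB87 was alike, with 13 of 15 above the mean of the other lines and a median difference of 0.58, and it was above JB97 in 8 of the 15. Cad, an enzyme of pyrimidine synthesis, was 435 CPM in JB97 and 377 in JB87, compared with 212 in both JB81 and JB91 and 137 and 152 in JB84 and JB93. Npm1, a nucleolar protein, was 1924.5 CPM in JB97 and 1985 in JB87, compared with 1052 to 1100 in the other 4. JB87 is an NC line whose chromosome 15 RNA was at -0.19 against the BNC lines. Its Myc RNA (123 CPM) was the next highest after that of JB97 (136 CPM). The cause of the higher target RNA in these lines was not tested.

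Between BNC and NC lines, 6 of 485 chromosome 15 genes passed an adjusted p of 0.01 and a 2-fold change (edgeR), compared with 1.1% of 12376 genes over the genome, so that the share on chromosome 15 (1.24%) was near the background. The 4 that rose in BNC lines were Slc1a3, Col2a1, Khdrbs3, and Slc2a13. Slc1a3, a glutamate transporter, was between 18.5 and 22.8 CPM in BNC lines and between 0.67 and 0.93 in NC lines (log2 fold change 4.64 ± 0.26, adjusted p = 0.0035, edgeR). Col2a1, a collagen of cartilage, was 69.6, 78.5, and 202 CPM in JB81, JB91, and JB97 and at most 0.16 CPM in NC lines. Khdrbs3, an RNA-binding protein, was between 17.1 and 26.1 CPM in BNC lines and had 2 counts in all NC lines together. Slc2a13, a sugar transporter, was between 4.59 and 8.97 CPM and had 1 count in NC lines.

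The 2 that fell were Pmm1 and Hoxc9. Pmm1, a phosphomannomutase, was between 30.8 and 39.4 CPM in BNC and between 93.2 and 143 CPM in NC lines (log2 fold change -1.80 ± 0.20, adjusted p = 0.0098, edgeR). Hoxc9 was between 4.68 and 6.17 CPM in NC lines and had 1 count in BNC lines. The adjusted p of Col2a1, Khdrbs3, Slc2a13, and Hoxc9 was between 0.0055 and 0.0094 (edgeR). The calls changed with the lines used. With each pair summed, edgeR called 0 of 506 chromosome 15 genes, with 71 (14%) at an unadjusted p under 0.05, compared with 11.7% of all genes. Without JB97 it called 38 (7.63%, compared with 7.57% of all genes) and without JB87 115 (22.8%, compared with 19.7%). In these 2 settings, 1 genotype was left with only a pair of alike lines, counted as 2 replicates. Without JB81, JB91, JB84, or JB93 edgeR called 0 on chromosome 15. Over all genes it called 1 of 12919 without JB81 and 0 without JB91, JB84, or JB93, so these losses were not particular to chromosome 15. DESeq2 called 78 chromosome 15 genes (14.5%, compared with 14.2%).

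Of the 50 listed chromosome 15 genes, 41 were tested, of which 1 rose (Col2a1) and 1 fell (Hoxc9), and 20 (48.8%) had an unadjusted p under 0.05, compared with 35.6% of all genes tested. The 2 called are 4.88% of the genes tested, compared with 1.1% of all genes. The keratins Krt8 and Krt18, structural proteins of epithelial and mesothelial cells, were at 210 to 382 CPM and 59.9 to 152 CPM in NC lines. They were at 7.35 and 0.97 CPM in JB97 and at or below 0.31 CPM in JB81 and JB91, and the adjusted p-values were 0.046 and 0.019 (edgeR), short of the limit. In the 9 tumors Krt8 was between 12.2 and 357 CPM.

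The chromosome 15 genes outside that list with the largest excess in JB97 over the mean of the other 5 lines were Cthrc1, Krt7, Adamts12, Angpt1, and Khdrbs3. Myc and Pvt1 are on the list and did not enter this order. Cthrc1, a secreted matrix protein, was 47.0 CPM in JB97 and at most 1.85 in the others. Krt7, a keratin of simple epithelia, was 32.3 CPM in JB97 and 26.9 in JB87 but at most 0.40 in the other 4. Adamts12, an extracellular protease, was 33.1 CPM compared with at most 3.53, and Angpt1, a ligand of the Tie2 receptor, was 19.7 CPM compared with at most 1.96. Khdrbs3, also called between genotypes, was 26.1 CPM compared with at most 18.4. In the 9 tumors, whose chromosome 15 level was near 0 where measured, Cthrc1 was between 7.02 and 115 CPM.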

How the data were processed

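The authors deposited DNA values on a log2 scale per 20-kb bin, described per the file headers as log2 read counts. By the methods, reads were aligned to mm10 (BWA 7.10), counted with an adapted CopywriteR, and corrected for GC content and mappability. The methods name ratios to normal tail, but no reference column was given, and depth per bin is unknown. Bins without reads were set to missing. RNA counts per gene were deposited by the authors (TopHat2 2.0.12, HTSeq).

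DNA values were centred and fitted by optimal partitioning (penalty 10 times log n, values clipped at 1), tested on simulated data. Lines were assigned by the heads of the study's table of cell lines. The cell lines were compared with edgeR 4.0.16 in R 4.3.3 (TMM, filterByExpr, adjusted p below 0.01, over 2-fold), with DESeq2 1.42.0 as an alternative. CPM are TMM-scaled, and chromosome medians are over genes whose log2 CPM (prior count 2) averaged more than 4. Line totals were 12377675 to 23936922 counts. Antisense and overlapping genes are uncertain, since the strand setting is not given in the sources used here. P-values measure only the spread between these lines, which may be technical. Chromosome 15, the gene lists, and the tests were chosen with earlier results of these data known. Named genes were Myc, Pvt1, the 3 highest and 3 lowest listed genes, genes called, runs of extreme bins, and the 5 genes highest in JB97. Krt8, Krt18, Mxi1, Max, Cad, Npm1, Ccnd2, and Rictor were named, and the bin at 82500001 was described, after their values had been seen.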

Additional observations from a re-analysis of the deposited data

How the results depend on the processing

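With values relative to the median over tumors, the chromosome 15 level of B21 was 0.030 and that of B31 was 0.013. The other settings for the levels of the 14 tumors and for the Myc bin moved no value by more than 1 SD between samples. Signs of values near 0 changed, however. Relative to the median over tumors, only B21, B31, and B28 (0.0027) had levels above 0. The median over tumors at Myc was -0.11 in the single bin, -0.021 within 100 kb, and 0.024 within 500 kb. Chromosome 15 RNA of the 6 lines kept its sign in every setting, but library size alone brought JB81 to 0.044, JB91 to 0.068, JB84 to -0.15, JB87 to -0.11, and JB93 to -0.12, and the mean of the other 5 lines as reference brought JB81 to 0.12, JB91 to 0.13, JB87 to -0.075, and JB93 to -0.17. The window count stayed at 0 with limits of 0.1 and 0.3, with 5-Mb windows, and relative to the median over tumors. With a limit of 0.02 on relative values, chosen after seeing the data, it was 14. Of 154 chromosome 15 windows, 12 were above 0.02 and 2 below -0.02, compared with 138 and 156 of 3556 over all autosomes. The 1 breakpoint, in B5, was lost with penalties of 5 log n and 20 log n and with relative values (0 each). Over all autosomes, 111, 56, and 38 of the 266 pairs of an autosome and a tumor had a breakpoint in those settings. A step of 0.1 gave 3, and a step of 0.02 on relative values, chosen after seeing the data, gave 2. Causes were not tested.

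No paired analysis was possible because the tumor columns carry no genotype, and for the same reason neither the comparison of BNC with NC tumors nor its repeats without each tumor were run. For the lines, whose numbers come from a table in which JB91 and JB97 share a number, the replicate block gave 0 called chromosome 15 genes. It also gave 0 of 12376 genes over the genome. The count of chromosome 15 genes was 11 without a filter beyond 1 count (1.45%, compared with 0.821% of all genes) and 78 with DESeq2. It was 0 with like pairs summed (chosen after seeing the data) and 0 to 115 with 1 line left out. The 115 came without JB87, where only the alike pair was left for NC. The Myc log2 fold change was positive without JB91 (0.067), without JB81 (0.11), and without JB87 (0.15), and ran from -0.49 to 0.15. Depth limits the DNA to changes well above the bin noise of 0.11 to 0.16 in single bins.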
